A study of Mus musculus with 8 samples.

Results

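The 10 genes described here are pancreatic islet genes and diabetes autoantigens: the insulin genes Ins1 and Ins2, the islet peptides Ppy and Iapp, the transcription factors Pdx1, Nkx6-1 and Neurod1, and the beta cell autoantigens G6pc2, Slc30a8 and Ptprn. They were taken by symbol from the gene names of the array files, which gave 11 probes, of 55669 probes and 34963 gene names in all. Neurod1 has 2 probes and each of the others has 1. The assay was a 1-colour (Cy3) microarray, run on cells of mice of mixed C57BL/6 and 129 strain background. Mature medullary thymic epithelial cells (mTEC) were sorted as Epcam+ UEA1+ CD45- Fluorogold- cells with high CD80 and MHC class II, from 3 Cdx1-/- and 3 Cdx1+/+ samples, each a pool of 4 to 6 thymi. Small intestine epithelial cells (SIEC) were sorted as Epcam+ CD45- Fluorogold- cells, from 1 sample labelled Cdx1-/- and 1 labelled Cdx1+/+, each a pool of 3 mice. The labels name no other allele and no treatment. The age and sex of the mice, and the structure of the Cdx1 allele, were not stated in the sources used here.

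Mature mTEC transcribe genes that otherwise belong to single organs and display the products to developing thymocytes, so that self-reactive T cells are deleted or become regulatory. Insulin is the best-known such self-antigen: its level in the thymus is linked to susceptibility to autoimmune diabetes in mouse and human, and its thymic transcription depends on Aire, the regulator mutated in a human polyendocrine autoimmune syndrome. Cdx1 is a caudal-type homeobox factor known from the gut epithelium. By its title, the study asked how ectopic expression in mTEC differs when Cdx1 is lost.

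Both insulin genes fell in Cdx1-/- mTEC. Ins1 was 2.44-fold and Ins2 2.38-fold lower than in Cdx1+/+ mTEC, with no array of one genotype reaching the other. Ppy was 1.33-fold lower, and the dim Pdx1 signal did not clear background on the Cdx1-/- arrays. Iapp, the peptide that beta cells release together with insulin, did not pass the test and had a slightly higher mean in Cdx1-/- mTEC.

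Levels are given as log2 processed intensity minus the array's 75th percentile, so that a level of 0 is as bright as that percentile. A probe was counted as measured on an array where the scanner software called it well above background. That held for 58.6% to 63.5% of spots on the mTEC arrays and for 44.6% and 46.3% on the SIEC arrays labelled Cdx1-/- and Cdx1+/+. Saturated spots were not found. Over all probes, Pearson's r was 0.988 to 0.989 within Cdx1-/- mTEC, 0.99 to 0.991 within Cdx1+/+ mTEC, 0.982 between the SIEC arrays and 0.832 to 0.836 between tissues.

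All 12 genes of the mature mTEC list were above background on every mTEC array. The SIEC arrays labelled Cdx1-/- and Cdx1+/+ measured 7 and 8 of them, and neither measured Aire, Fezf2, Cd86 or Krt5. The summed linear level of that list, relative to the percentile above, was 1060 and 937 on these SIEC arrays. It was 886 to 1200 in Cdx1-/- mTEC and 979 to 1370 in Cdx1+/+ mTEC, so it did not set the tissues apart. All 11 intestinal markers were above background on every array of both tissues. Their sum was 4730 and 3120 on the SIEC arrays. In Cdx1-/- mTEC it was 57.6 to 59 and in Cdx1+/+ mTEC 92.2 to 99.6. Aire had levels of 3.52, 3.63 and 3.67 in Cdx1-/- mTEC and 3.53, 3.66 and 3.71 in Cdx1+/+ mTEC, which overlapped (log2 difference -0.026, SE 0.091, limma adjusted p = 0.874). The Cdx1 probe read 5.04, 5.20 and 5.21 in Cdx1-/- mTEC and 6.09, 6.12 and 6.18 in Cdx1+/+ mTEC, lower on every Cdx1-/- array but still far above background (log2 difference -0.98, SE 0.088, limma adjusted p = 0.00325). Whether the probe lies within the deleted part of the gene was not stated in the labels. In SIEC the order went against the labels, since the array labelled Cdx1-/- read 6.73 and the one labelled Cdx1+/+ read 5.13, so directions drawn from that pair rest on labels that Cdx1 does not bear out.

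Ins1 is the retroposed insulin gene of mouse and rat, and beta cells transcribe it together with Ins2. Its probe lies on the plus strand at chr19:52339385-52339444 (mm9) and ends just past the stop codon. The probe is shown because it reads the coding end of the A chain, a stretch that both mouse insulins encode, with the stop codon in capitals.
Ins1 probe: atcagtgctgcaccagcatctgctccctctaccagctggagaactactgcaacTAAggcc
In Cdx1-/- mTEC the Ins1 levels were 2.07, 2.02 and 2.04, against 3.27, 3.39 and 3.35 in Cdx1+/+ mTEC. Every Cdx1-/- array lay below every Cdx1+/+ array, by a gap many times the spread within either group. The means were 2.05 ± 0.026 in Cdx1-/- mTEC and 3.34 ± 0.065 in Cdx1+/+ mTEC (SD, n = 3 each). The log2 difference was -1.29 (SE 0.08, 95% interval -1.48 to -1.1, limma adjusted p = 0.00201). The arrays came on 2 slides, of which slide 1 held every mTEC array except Cdx1-/- replicate 1. Within slide 1 the difference was -1.3 (limma adjusted p = 0.00825), as it was with the slide as a block (-1.3, limma adjusted p = 0.00912). With 1 mTEC array on slide 2, the block amounts to leaving that array out.

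Ins2 is the mouse insulin gene whose structure matches that of insulin in other mammals, and it is the insulin gene that thymic epithelium is best known to transcribe. Its probe lies on the minus strand at chr7:149864566-149864625 (mm9). The Ins2 levels were 2.22, 2.35 and 2.40 in Cdx1-/- mTEC, against 3.46, 3.62 and 3.64 in Cdx1+/+ mTEC. Again no array of one genotype reached the range of the other. The means were 2.32 ± 0.091 in Cdx1-/- mTEC and 3.57 ± 0.099 in Cdx1+/+ mTEC (SD, n = 3 each). The log2 difference was -1.25 (SE 0.095, 95% interval -1.47 to -1.02, limma adjusted p = 0.00253), and -1.2 both within slide 1 (limma adjusted p = 0.0107) and with the slide as a block (limma adjusted p = 0.0116). The change of Ins1 minus that of Ins2 was -0.041, with overlapping arrays (2-sided exact permutation p = 0.7 over 20 splits). How far the Ins1 probe also captures Ins2 transcripts was not tested, so the 2 probes may not be independent readings.

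Ppy encodes pancreatic polypeptide, the hormone of the islet PP cells. Its probe, shown because its match on the genome is split by an intron, is 60 bases long but spans 297 bases of the minus strand at chr11:101961581-101961877 (mm9). It has no part in capitals.
Ppy probe: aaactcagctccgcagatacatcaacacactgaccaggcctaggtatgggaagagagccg
Ppy levels were 2.95, 3.07 and 3.08 in Cdx1-/- mTEC, against 3.42, 3.43 and 3.47 in Cdx1+/+ mTEC. The genotypes did not overlap, with every Cdx1-/- array below every Cdx1+/+ array. The log2 difference was -0.41 (SE 0.082, 95% interval -0.6 to -0.21, 1.33-fold lower), with means of 3.03 ± 0.072 in Cdx1-/- mTEC and 3.44 ± 0.028 in Cdx1+/+ mTEC (SD, n = 3 each) and a limma adjusted p of 0.0248. The direction held in every alternative run, but the call ended in all 6 fits that left out 1 mTEC array (-0.43 to -0.37, limma adjusted p 0.0582 to 0.0824) and with the slide as a block (-0.37, limma adjusted p = 0.0621).

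Iapp encodes islet amyloid polypeptide, the peptide that beta cells store and release with insulin. Its probe lies on the plus strand at chr6:142252275-142252334 (mm9). Iapp levels were 3.93, 3.92 and 3.80 in Cdx1-/- mTEC, against 3.74, 3.69 and 3.65 in Cdx1+/+ mTEC. Every Cdx1-/- array lay above every Cdx1+/+ array, the opposite order to the insulins, yet the difference did not pass the test (log2 0.19, SE 0.083, 95% interval -0.0058 to 0.39, limma adjusted p = 0.17). Set against Iapp within each array, the change was -1.48 for Ins1 and -1.44 for Ins2 on the log2 scale, and set against Ppy it was -0.88 for Ins1 and -0.84 for Ins2. All 4 of these ratios were lower on every Cdx1-/- array than on any Cdx1+/+ array, with a 2-sided exact permutation p of 0.1 each, the smallest that 3 arrays against 3 allow, so that none could pass 0.05 (0.125 after Benjamini-Hochberg adjustment over the 5 ratios, that of the insulins included). The splits do not use the replicate numbers.

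The stretches of 250 bases before the transcript starts of Ins1, Iapp and Ppy are shown because Ins1 and Ppy passed the mTEC test and Iapp did not. They come from RefSeq (GRCm38.p6), in which 8 of the 10 genes had an entry. Ins2, which also passed, is not shown because Ins2 and Slc30a8 had none. Capitals mark matches on either strand to TAAT, the core of many homeodomain sites, and to CANNTG, the E box, and adjoining or overlapping matches form 1 run of capitals.
Ins1, chr19:52264047-52264296, plus strand: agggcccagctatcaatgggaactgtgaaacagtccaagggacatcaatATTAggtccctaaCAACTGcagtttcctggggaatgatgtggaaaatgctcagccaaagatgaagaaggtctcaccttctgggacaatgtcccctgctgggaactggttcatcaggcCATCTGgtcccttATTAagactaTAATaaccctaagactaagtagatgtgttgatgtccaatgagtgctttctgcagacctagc
Iapp, chr6:142298175-142298424, plus strand: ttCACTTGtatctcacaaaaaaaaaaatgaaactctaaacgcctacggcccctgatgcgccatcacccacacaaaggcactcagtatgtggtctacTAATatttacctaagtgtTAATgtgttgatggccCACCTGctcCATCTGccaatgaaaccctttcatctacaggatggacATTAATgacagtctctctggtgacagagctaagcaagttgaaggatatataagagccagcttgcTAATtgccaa
Ppy, chr11:102101320-102101569, minus strand: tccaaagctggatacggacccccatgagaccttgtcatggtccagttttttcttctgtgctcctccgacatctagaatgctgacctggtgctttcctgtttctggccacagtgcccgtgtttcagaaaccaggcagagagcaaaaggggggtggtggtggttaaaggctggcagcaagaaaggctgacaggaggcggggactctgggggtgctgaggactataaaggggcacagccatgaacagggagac
The Ins1 stretch held 3 matches to TAAT and 2 to CANNTG, the Iapp stretch 5 and 3, and the Ppy stretch 0 of each. The letters TTTAT, the core of the Cdx site, were searched on both strands and were found 0 times for Ins1, 0 times for Iapp and 1 time for Ppy. The Ppy match is not in capitals. It is the ataaa within the letters tataaa near the end of the stretch, read on the other strand. Among 32851 mouse promoters of the same length, 54.9% held TAAT, 66.2% held CANNTG and 37.3% held TTTAT. These matches are a description of the letters in these windows.

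Pdx1 is the homeodomain factor that forms the pancreas and activates insulin transcription in mature beta cells. In mTEC it was near the detection limit: the levels were -4.73, -6.02 and -5.99 in Cdx1-/- mTEC, none well above background, against -4.26, -3.85 and -3.98 in Cdx1+/+ mTEC, all well above it. The genotypes did not overlap, and since only the Cdx1+/+ arrays measured Pdx1 its fall has a lower bound. By that bound Pdx1 was at least 1.4-fold lower in Cdx1-/- mTEC, with means of -5.58 ± 0.74 in Cdx1-/- mTEC and -4.03 ± 0.21 in Cdx1+/+ mTEC (SD, n = 3 each; limma adjusted p = 0.035). The p-value uses Cdx1-/- levels that were all below background, for a gene that entered the test through the Cdx1+/+ arrays alone. With the replicate number as a block the limma adjusted p was 0.0603, and the call also ended in 5 of 6 fits without 1 mTEC array. It ended too with normexp background correction (log2 -0.43, limma adjusted p = 0.13), a difference that lies under the bound.

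Nkx6-1, a homeodomain factor that maintains beta cell identity, was detected on every mTEC array. Its levels were -2.23, -2.13 and -2.15 in Cdx1-/- mTEC, against -2.10, -1.81 and -1.94 in Cdx1+/+ mTEC. The arrays did not overlap, by a margin of hundredths, and the difference did not pass the test (log2 -0.22, SE 0.1, 95% interval -0.46 to 0.022, limma adjusted p = 0.194). Neurod1, a basic helix-loop-helix factor of islet and enteroendocrine cells that binds the E box of the insulin promoter, did not enter the test in mTEC. The brighter of its 2 probes read -5.55, -4.88 and -5.48 in Cdx1-/- mTEC, none above background, and -4.73, -5.48 and -5.01 in Cdx1+/+ mTEC, of which the first alone was above it. Without the filter on dim probes the Neurod1 difference was -0.23 (SE 0.26, limma adjusted p = 0.601). The other Neurod1 probe was not well above background anywhere, in mTEC or in SIEC.

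Among the autoantigens, G6pc2 (the islet glucose-6-phosphatase subunit, the antigen known as IGRP) was near the limit of detection. Its levels were -5.07, -5.63 and -4.79 in Cdx1-/- mTEC, none above background, against -4.76, -5.52 and -4.18 in Cdx1+/+ mTEC, of which 2 were above it. The arrays overlapped and the difference did not pass the test (log2 -0.34, 95% interval -1.21 to 0.53, limma adjusted p = 0.566). Slc30a8, which encodes the zinc transporter of the insulin granule, read -3.23, -2.62 and -3.92 in Cdx1-/- mTEC, against -3.37, -3.12 and -3.36 in Cdx1+/+ mTEC. The Cdx1-/- arrays lay on both sides of the Cdx1+/+ ones, with a log2 difference of 0.021 and an interval of -0.71 to 0.75 (limma adjusted p = 0.969). Ptprn, which encodes the granule protein IA-2, read -2.70, -2.67 and -2.93 in Cdx1-/- mTEC, against -2.72, -2.09 and -2.45 in Cdx1+/+ mTEC. These overlapped too, and the difference of -0.35 did not pass the test (95% interval -0.76 to 0.065, limma adjusted p = 0.223).

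**Figure D1:**
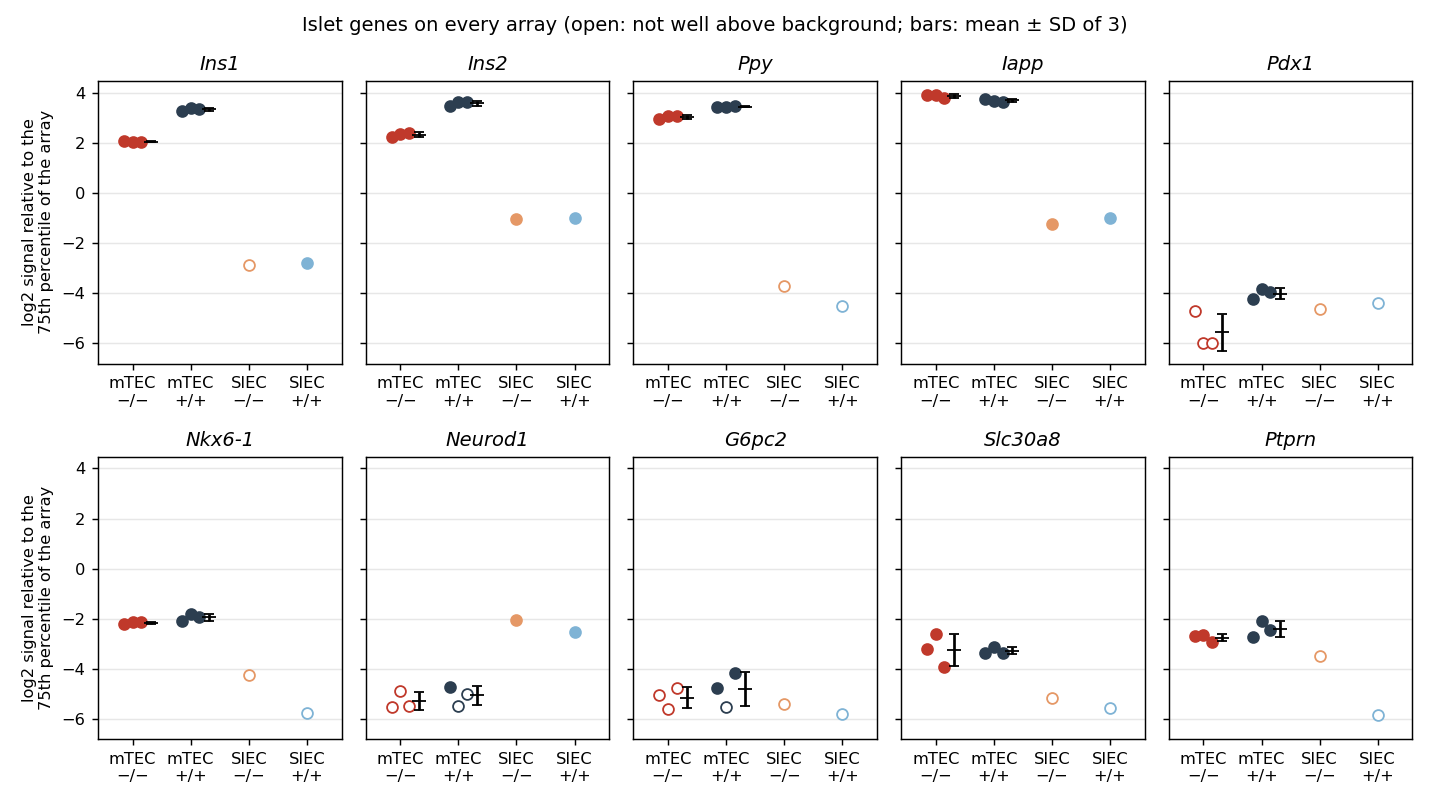
Log2 signal of each islet gene above the array's 75th percentile (vertical axis) on each of the 8 arrays, in mTEC (3 Cdx1-/-, 3 Cdx1+/+) and in SIEC (1 array labelled with each genotype). Filled points were well above background, open points were not, and black bars give the mean ± SD of 3 arrays. The Cdx1-/- points of Ins1 lie at 2.02 to 2.07, below the Cdx1+/+ points at 3.27 to 3.39.

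Of the 10 genes, 9 could be tested between the mTEC genotypes, and 4 of these (44.4%) were lower in Cdx1-/- mTEC, 0 were higher and 5 did not pass. Of all 24337 genes tested, 13% passed, 6.62% lower and 6.4% higher in Cdx1-/- mTEC. The arrays did not overlap for 6 of the 9, against 38.3% of all genes tested. The median log2 difference of the 9 was -0.35, beside 0.0071 over all genes tested, of which the 5th and 95th percentiles were -0.66 and 0.54. Pdx1 and G6pc2 entered the test through the Cdx1+/+ arrays alone, so these counts and the median are descriptions of the genes chosen. In RNA of sorted populations, fewer cells that transcribe a gene and less RNA of it per cell cannot be told apart.

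**Figure D2:**
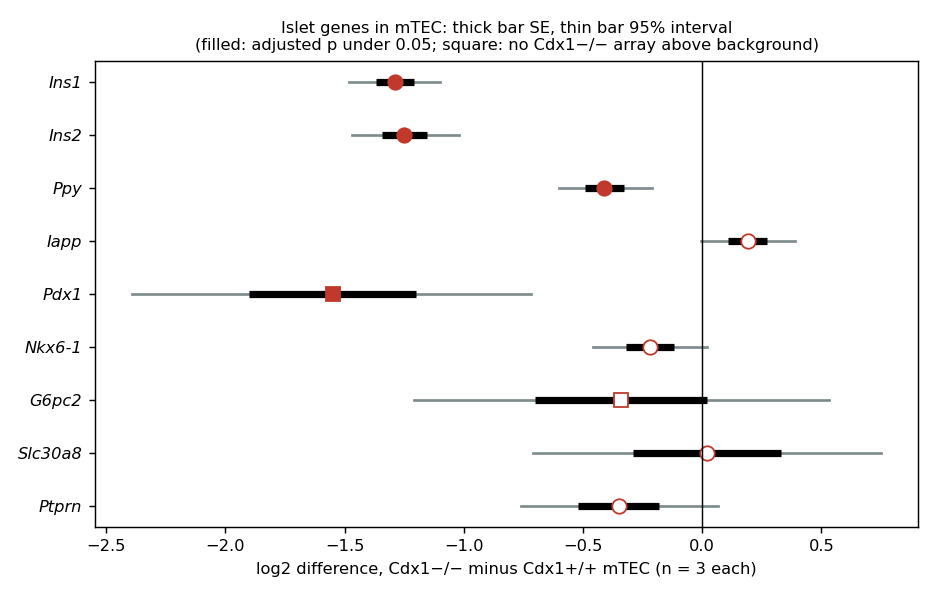
Log2 difference of Cdx1-/- minus Cdx1+/+ mTEC (horizontal axis) for the 9 islet genes tested, 3 arrays per genotype, with the SE as a thick bar and the 95% interval as a thin one. Filled symbols passed an adjusted p of 0.05 and squares mark genes that no Cdx1-/- array measured. Ins1, Ins2, Ppy and Pdx1 lie left of 0, and the Iapp interval reaches from -0.0058 to 0.39.

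Genes whose level followed Ins2 most closely over the 6 mTEC arrays were Stab1 and Hpca (Pearson r = 0.999 each), then Fgb, Padi2 and Gsdmc (0.998 each), among 15749 named genes above background on all 6. Ins1 followed at 0.994 (rank 32) and Ppy at 0.991 (rank 65), while Iapp stood at -0.928. The 6 arrays fall into the 2 genotypes, so these correlations mostly restate the difference between the groups and are given as a description, with no test.

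The other genes of the islet programme, taken from 5 lists that hold 65 genes, were read beside the 10. Of the 60 that could be tested, 11 (18.3%) were lower in Cdx1-/- mTEC and 3 (5%) higher, beside 6.62% lower and 6.4% higher of all genes tested. The median log2 difference of the 60 was -0.066. Among them 2, Glis3 and Glp1r, entered the test through the Cdx1+/+ arrays alone. Those lists were chosen with results of these data known.

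Among 13 other islet hormones and secreted peptides, 5 fell and 0 rose, and the median log2 difference was -0.082. Sst, which encodes somatostatin, averaged 2.21 ± 0.081 in Cdx1-/- mTEC and 2.73 ± 0.06 in Cdx1+/+ mTEC (limma adjusted p = 0.015). Pyy, the gut and islet peptide YY, averaged 4.01 ± 0.083 in Cdx1-/- mTEC and 4.51 ± 0.16 in Cdx1+/+ mTEC (limma adjusted p = 0.0313). Npy, a related neuropeptide, averaged 1.81 ± 0.048 in Cdx1-/- mTEC and 2.26 ± 0.13 in Cdx1+/+ mTEC (limma adjusted p = 0.0308). The log2 differences of these 3 were -0.51, -0.5 and -0.44. The other 2 that fell were Vgf (-0.46) and the granin Chga (-0.38). Gcg, which encodes glucagon, read 1.86 ± 0.12 in Cdx1-/- mTEC and 1.93 ± 0.13 in Cdx1+/+ mTEC and did not pass (limma adjusted p = 0.705).

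Of 21 other islet transcription factors, 17 were tested, 2 were lower and 2 higher in Cdx1-/- mTEC, and the median log2 difference was -0.024. Hnf4a, the nuclear receptor of liver, gut and beta cells that is mutated in a form of human monogenic diabetes, had a mean of -0.32 ± 0.061 in Cdx1-/- mTEC and 0.88 ± 0.054 in Cdx1+/+ mTEC (log2 -1.19, SE 0.082, limma adjusted p = 0.00243). Glis3, a zinc finger activator of insulin transcription, was well above background on 0 of 3 Cdx1-/- arrays and on 3 of 3 Cdx1+/+ arrays. By its bound it was at least 1.24-fold lower (limma adjusted p = 0.0291). As for Pdx1, that p-value uses Cdx1-/- levels below background, and the call of Glis3 was not followed through the alternatives. Foxa2, a forkhead factor of endoderm, rose by 0.62 on the log2 scale (limma adjusted p = 0.0311). Ptf1a, a factor of the acinar lineage, rose by 0.56 (limma adjusted p = 0.0194). Mafa, an activator of insulin transcription, averaged 0.71 ± 0.41 in Cdx1-/- mTEC and 1.01 ± 0.29 in Cdx1+/+ mTEC and did not pass (limma adjusted p = 0.424).

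Among 15 other genes of hormone processing and secretory granules, 4 fell and 0 rose, and their median log2 difference was -0.19. Resp18, an endocrine granule protein related in sequence to Ptprn, averaged 0.9 ± 0.36 in Cdx1-/- mTEC and 2.66 ± 0.06 in Cdx1+/+ mTEC, 3.4-fold lower (limma adjusted p = 0.00413). Slc18a1, a vesicular monoamine transporter, was 2.07-fold lower (limma adjusted p = 0.00362), and Pcsk2, the proprotein convertase that cleaves proinsulin and proglucagon, was 1.64-fold lower (limma adjusted p = 0.0115). The fourth was Pam (log2 -0.38). Pcsk1, the other proinsulin convertase, read -1.95 ± 0.087 in Cdx1-/- mTEC and -2.07 ± 0.13 in Cdx1+/+ mTEC and did not pass (limma adjusted p = 0.43).

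Of 10 genes of glucose sensing and beta cell excitability, 9 were tested, with 1 higher, 0 lower and a median of 0.21. The 1 was Trpm5, a cation channel of beta cells that also marks tuft cells (log2 0.84, SE 0.14, limma adjusted p = 0.0146). Of 10 other diabetes autoantigens, 1 fell and 0 rose (median -0.2), and the 1 was Chga, also counted among the hormones. Gad1, which encodes a glutamate decarboxylase, averaged 0.57 ± 0.1 in Cdx1-/- mTEC and 0.78 ± 0.065 in Cdx1+/+ mTEC and did not pass (limma adjusted p = 0.173).

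**Figure D3:**
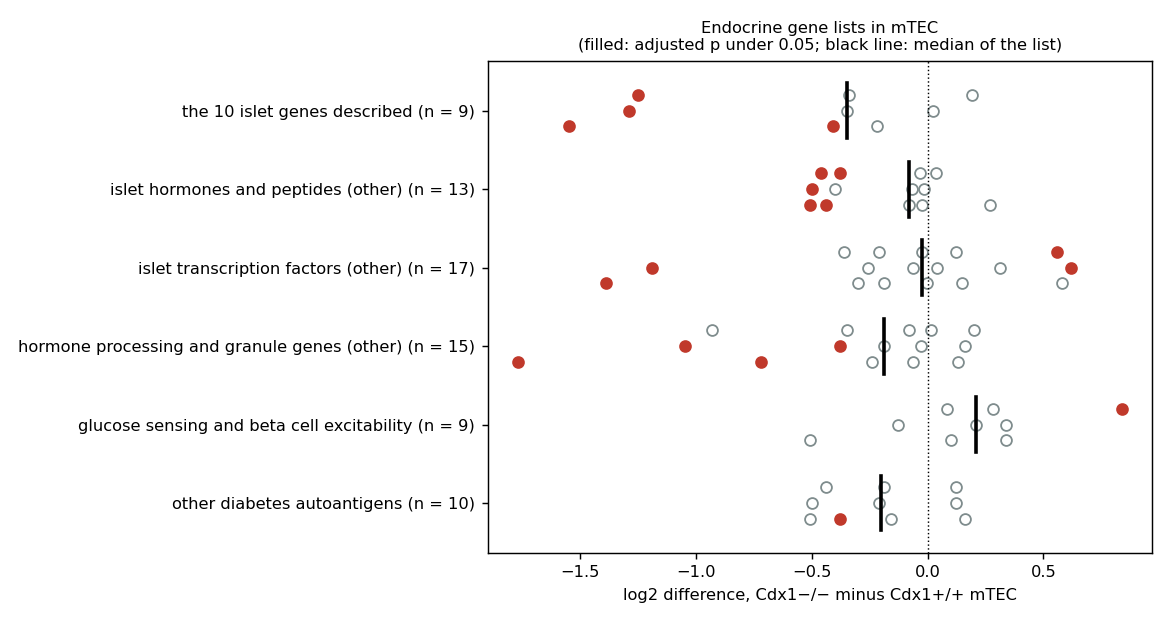
Log2 difference of Cdx1-/- minus Cdx1+/+ mTEC (horizontal axis) for every tested gene of the 10 islet genes and of 5 further lists, 1 point per gene, spread vertically for legibility. Filled points passed an adjusted p of 0.05 and black lines are medians, which lie at -0.35 for the islet genes described and between -0.2 and 0.21 for the other lists.

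The summed linear levels of several marker lists of other cell types did not overlap between the genotypes. Such a sum is carried mostly by the brightest genes of its list. Of all genes tested, 6.62% were lower and 6.4% higher in Cdx1-/- mTEC. In units of the array's 75th percentile, the 11 enteroendocrine markers summed to 126 to 130 in Cdx1-/- mTEC and 178 to 184 in Cdx1+/+ mTEC. Of the 10 tested, 6 fell and 1 rose, and the median log2 difference was -0.44. That list includes Neurod1 and shares Sst, Pyy, Chga, Chgb and Gcg with the lists above. The 11 intestinal markers summed to 57.6 to 59 in Cdx1-/- mTEC and 92.2 to 99.6 in Cdx1+/+ mTEC. Of these, 8 of 11 fell, and the median log2 difference was -0.84. The 7 tuft cell markers summed to 10.1 to 12.2 in Cdx1-/- mTEC and 5.26 to 7.07 in Cdx1+/+ mTEC. Of these, 5 of 7 rose, and the median log2 difference was 0.84. The 17 acinar markers on the array were all above background on every mTEC array. They summed to 49.3 to 55.9 in Cdx1-/- mTEC and 58.9 to 71.1 in Cdx1+/+ mTEC. Of these, 4 of 17 fell and 0 rose, but the median log2 difference was only -0.073. The brightest, Ctrb1, had log2 levels of 3.35 to 3.81 in Cdx1-/- mTEC and 4.34 to 4.68 in Cdx1+/+ mTEC. The 6 cortical TEC markers summed to 245 to 315 in Cdx1-/- mTEC and 186 to 241 in Cdx1+/+ mTEC. Of these, 0 of 6 passed the test, and the median log2 difference was 0.25. The brightest, Ccl25, had log2 levels of 7.67 to 8.07 in Cdx1-/- mTEC and 7.18 to 7.5 in Cdx1+/+ mTEC. The 4 B cell markers summed to 14 to 15.5 in Cdx1-/- mTEC and 10.4 to 11.7 in Cdx1+/+ mTEC. Of these, 1 of 4 rose, but the median log2 difference was -0.32, against the direction of the sum. The brightest, Cd79b, had log2 levels of 3.65 to 3.8 in Cdx1-/- mTEC and 3.06 to 3.24 in Cdx1+/+ mTEC. The sums of the mature mTEC, thymocyte, dendritic cell and macrophage, fibroblast and endothelium lists overlapped between the genotypes. The part of these shifts in the fall of the insulins was not tested.

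Set against small intestine, the 4 hormones Ppy, Ins1, Iapp and Ins2 were higher in mTEC. Between tissues 7 of the 10 were higher in mTEC, 1 lower and 2 did not pass, in a comparison where 84.1% of 25272 genes tested passed, 33.9% higher and 50.2% lower, and where the median of all genes was -0.46. The median of the 10 was 2.54. The fit took all 8 arrays with genotype as a term. Of the 10, 6 were above background on neither SIEC array and entered the test through mTEC alone, and Neurod1 entered through SIEC, so these counts are descriptions too.

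Ppy was 2.95 to 3.47 in mTEC and -3.74 and -4.52 on the SIEC arrays, which did not measure it. By its bound it was at least 98.8-fold higher in mTEC (limma adjusted p = 7.13e-08, which uses SIEC levels below background). Ins1 was 2.02 to 3.39 in mTEC and -2.90 and -2.80 in SIEC, of which the array labelled Cdx1+/+ alone was above background, a fitted difference of 46.5-fold (limma adjusted p = 2.92e-07). Iapp was 3.65 to 3.93 in mTEC and -1.23 and -1 in SIEC, 30-fold higher in mTEC (limma adjusted p = 2.19e-08). The tissues did not overlap for these 3 genes or for Ins2. The share of all genes without overlap between the tissues was not counted. Ins2 was 2.22 to 3.64 in mTEC and -1.06 and -1 in SIEC, measured on both, and 15.7-fold higher in mTEC (limma adjusted p = 2.13e-06). Taken within a genotype, the log2 difference between the tissues was 3.38 for Ins2 and 4.95 for Ins1 on the arrays labelled Cdx1-/-, and 4.57 for Ins2 and 6.13 for Ins1 on those labelled Cdx1+/+. For Iapp it was 5.12 on the arrays labelled Cdx1-/- and 4.69 on those labelled Cdx1+/+. Normexp background correction gave smaller log2 differences over all 8 arrays, 4.8 for Ppy, 4.07 for Ins1, 4.35 for Iapp and 3.53 for Ins2, and every one of these passed. The value for Ppy lies under its bound, which holds only without that correction. The SIEC arrays shared a slide with 1 mTEC array, Cdx1-/- replicate 1, whose levels of 2.95 for Ppy, 2.07 for Ins1, 3.93 for Iapp and 2.22 for Ins2 lay above both. With the slide as a block the log2 differences were 7.1 for Ppy, 5.4 for Ins1, 5.02 for Iapp and 3.68 for Ins2, and again all 4 passed.

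Nkx6-1, Slc30a8 and Ptprn were above background on every mTEC array and on neither SIEC array. The limits of detection differed: the lowest level measured was -5.13 to -4.43 on the mTEC arrays. It was -3.22 and -3.56 on the SIEC arrays labelled Cdx1-/- and Cdx1+/+. Slc30a8 read -3.92 to -2.62 in mTEC, in part under both SIEC limits, so a like level could go unmeasured in SIEC. By their bounds, Nkx6-1, Slc30a8 and Ptprn were at least 2.52-fold, 1.09-fold and 1.74-fold higher in mTEC (limma adjusted p = 7.89e-05, 0.000325 and 0.0068). These p-values use SIEC levels that were all below background, for genes that entered through mTEC alone, and are descriptions. The fitted log2 difference of Ptprn was 0.72 on the arrays labelled Cdx1-/- alone and 3.43 on those labelled Cdx1+/+ alone. With normexp background correction the log2 difference of Nkx6-1 was 0.41 (limma adjusted p = 0.0364), against 2.97 as fitted without it, which puts it under the bound. With the same correction Slc30a8 and Ptprn no longer passed and changed sign (-0.1, limma adjusted p = 0.612, and -0.023, limma adjusted p = 0.911), and with the slide as a block Ptprn no longer passed (1.75, limma adjusted p = 0.112). Neurod1 ran the other way: it read -4.73 to -5.55 in mTEC, above background on 1 of 6 arrays, and -2.06 and -2.53 in SIEC, above it on both. Its fitted log2 difference was -2.89 (SE 0.27, limma adjusted p = 2.63e-05), a value that rests on 5 mTEC arrays below background, and with normexp background correction it was -1.46 (limma adjusted p = 2.58e-05). Pdx1 and G6pc2 were above background on neither SIEC array and did not pass (log2 -0.27 and 0.61, limma adjusted p = 0.552 and 0.162). Their highest mTEC levels, -3.85 and -4.18, lay under the lowest level measured on either SIEC array.

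**Figure D4:**
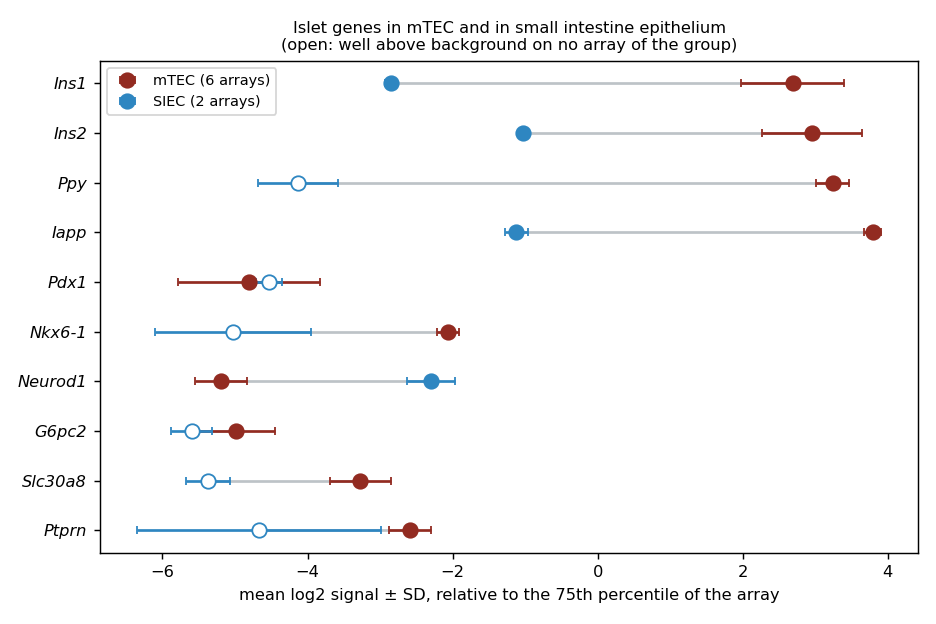
Mean log2 signal ± SD above the array's 75th percentile (horizontal axis) for each islet gene in mTEC (6 arrays) and SIEC (2 arrays). Open points mark genes that no array of the group measured. The 4 hormones lie between 2.69 and 3.79 in mTEC and at or below -1.03 in SIEC, while Neurod1 lies at -5.19 in mTEC and -2.3 in SIEC.

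The further islet lists split between the tissues. Among 13 hormones and peptides, 7 were higher and 6 lower in mTEC: Npy, Vgf and Scg5 were at least 43-fold, at least 175-fold and 17.3-fold higher, while Chgb, Ghrl and Gcg, which enteroendocrine cells also make, were 18.2-fold, 3.84-fold and 3.69-fold lower. Of 18 transcription factors tested, 4 were higher and 9 lower in mTEC, with Insm1 25-fold, Isl1 4.29-fold and Ptf1a at least 5.83-fold higher, and Hnf4a 156-fold and Nkx2-2 4.4-fold lower. Of 15 processing and granule genes, 6 were higher and 9 lower, with Pcsk2 14.1-fold, Pam at least 17.3-fold and Syt7 at least 1.33-fold higher and Pcsk1 7.24-fold, Ptprn2 2.45-fold and Sytl4 1.83-fold lower in mTEC. Of 9 glucose-sensing genes tested, 6 were higher and 1 lower: the ATP-sensitive potassium channel subunits Abcc8 and Kcnj11 were 15.3-fold and at least 1.07-fold higher, and Slc2a2, the glucose transporter GLUT2, was 86.9-fold lower in mTEC. Of 10 other autoantigens, 2 were higher and 7 lower, with Gad1 at least 16.7-fold and Dmpk 13.6-fold higher and Tspan7 45.5-fold and Hspd1 3.31-fold lower in mTEC. Across the 5 lists, 25 of 61 genes tested (41%) were higher and 28 (45.9%) lower, beside 33.9% and 50.2% of all genes tested. Of the 61, 14 were above background on neither SIEC array and entered through mTEC alone, 11 of them called, so these counts are descriptions. Each gene named in this paragraph passed limma's test, which for those given as at least a fold used SIEC levels below background.

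In SIEC, 1 array per genotype gives values and no test. The array labelled Cdx1-/- minus the one labelled Cdx1+/+ gave a log2 difference of -0.057 for Ins2, -0.23 for Iapp and 0.46 for Neurod1, beside a median of 0.3 over all probes. Over 3 other ways of processing (quantile normalization, normexp and the authors' values) these were -0.27 to -0.014 for Ins2, -0.44 to -0.088 for Iapp and 0.25 to 0.35 for Neurod1. Ins1 was above background on the array labelled Cdx1+/+ alone, and its difference changed sign among those ways (-0.32 to 0.059). Whether these differ from the mTEC differences was not tested. The other 6 genes were above background on neither SIEC array and have no measured difference there.

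**Figure D5:**
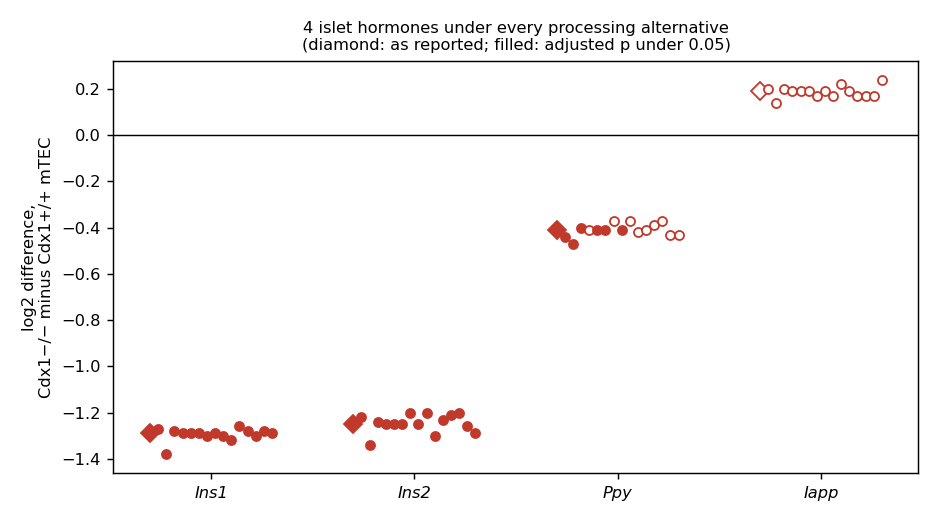
Log2 difference of Cdx1-/- minus Cdx1+/+ mTEC (vertical axis) for the 4 islet hormones as reported (diamonds) and under 15 alternative settings (circles), filled where the adjusted p was under 0.05. Ins1 stays between -1.38 and -1.26 and Ins2 between -1.34 and -1.2, Ppy lies between -0.47 and -0.37, and Iapp between 0.14 and 0.24.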

How the data were processed

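The authors' deposited scanner files hold linear intensity per spot, made with Agilent Feature Extraction 10.7.3.1, per the file headers. That intensity is background-subtracted and detrended within the array, with no scaling between arrays. Probe positions are on mm9, per the file headers. The columns of normalized values that the authors deposited each proved to be the processed intensity of 1 array multiplied by a constant, so that the column's median is 1.

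Of 59305 non-control spots per array, outlier spots were dropped, and spots of a probe were averaged. Log2 values were centred on the array's 75th percentile. A probe was kept if at least 2 arrays of 1 group measured it, or the array itself for a SIEC group of 1 array, and the brightest kept probe stood for its gene. Names came from the probe accession through RefSeq for 27506 probes. limma 3.58.1 (R 4.3.3) was fitted to the 6 mTEC arrays, and to all 8 arrays with genotype as an additive term for the tissues, with 2-sided tests and Benjamini-Hochberg adjustment over all genes tested at 0.05. For a bound, each dim array took the lowest level measured on it, or the probe's own level where that was higher, and the mean of these was set against the bright group's mean. Bounds were worked out from the levels as reported, not from those with normexp background correction. Samples are pools of animals, and the number of arrays limits the precision. The design text calls replicates independent. Data were handled with data.table (version 1.17.8) and pandas 2.3.3 and drawn with matplotlib 3.10.9.

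The 10 genes and the lists were chosen with earlier results of these data known. From each list, up to 3 genes per direction and comparison of smallest p past the threshold are named, and others named here were chosen after their values were seen. Some genes that this rule takes are counted but not named here. For likeness to Ins2, the 5 genes of highest Pearson r with ordinary symbols are named. Slide 2 held Cdx1-/- mTEC replicate 1 and both SIEC arrays, and slide 1 held the other 5 arrays. Same-numbered mTEC arrays, by the numbers in the titles, deviated together from their group means (r = 0.322, 0.147 and 0.148), so the numbers may pair the samples. The fits as reported did not use these numbers, which entered only through the replicate block among the alternatives. Alternatives were normexp background correction (offset 50), quantile normalization, the authors' values, other filters on dim probes, each probe on its own, slide and replicate blocks, slide 1 alone, each labelled genotype alone and leaving out each array.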

Additional observations from a re-analysis of the deposited data

Results flagged for a closer look

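Iapp ran in opposite directions by the labels. The SIEC array labelled Cdx1-/- read 0.23 below the one labelled Cdx1+/+ on the log2 scale (difference -0.23), while every Cdx1-/- mTEC array lay above every Cdx1+/+ mTEC array. The difference between the tissues was not tested, the mTEC difference did not itself pass the test, the SIEC pair has 1 array per label, and the Cdx1 level in that pair goes against the labels. With the SIEC labels turned, the difference would be 0.23, the same direction as in mTEC.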

How the results depend on the processing

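The arrays limit precision by their number, 3 per mTEC genotype and 2 for SIEC, and by signal over background: Pdx1, Neurod1 and G6pc2 were above background on only some mTEC arrays. In mTEC, Ins1 and Ins2 passed in all 15 alternatives, of which slide 1 alone and leaving out Cdx1-/- replicate 1 are the same fit, at -1.38 to -1.26 and -1.34 to -1.2. Leaving out each mTEC array in turn gave -1.32 to -1.26 for Ins1 and -1.3 to -1.2 for Ins2. With the slide as a block, and within slide 1, both also passed. Slide 2 held only 1 mTEC array, so the slide block amounts to leaving that array out and is no separate check. Ppy kept its direction and lost its call without a filter on dim probes (-0.41, limma adjusted p = 0.0673), with the slide as a block, and in the 6 fits without 1 array, of which slide 1 alone is 1 (-0.37, limma adjusted p = 0.0612). Pdx1 lost its call without the filter (-1.55, limma adjusted p = 0.0855), with normexp, with the replicate block and in 5 of the 6 leave-outs (-1.98 to -1.33 over all 6, limma adjusted p 0.00825 to 0.101). The cause was not tested. The replicate block changed no other call of the 10 genes and called 3591 genes in all.

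Of all genes tested in mTEC, 3170 passed as reported, 2100 with normexp, 1347 without the filter, 1776 with the slide as a block, 1849 within slide 1 and 1318 to 1849 without 1 array. Of the islet genes, 4 were lower as reported, 2 without the filter, and 2 to 3 without 1 array. Between tissues, normexp made 3 islet genes lower in mTEC instead of 1. G6pc2 reversed with normexp (-0.69, limma adjusted p = 0.00279), as did Slc30a8 (-0.1) and Ptprn (-0.023). Pdx1 passed with normexp (-0.8, limma adjusted p = 0.00174) and G6pc2 with quantile normalization (1.58, limma adjusted p = 0.00312). Ptprn ranged from 0.72 to 3.43 over the leave-outs. The median of all genes between tissues was -0.46 as reported, -0.13 with quantile normalization, -0.9 with the authors' table and -0.56 with normexp, and 59.7% of calls were lower in mTEC as reported, 70.9% with normexp and 69.5% without the filter. G6pc2 could not be tested under the strict filter, without Cdx1+/+ mTEC replicate 1 or 3, or between tissues on the arrays labelled Cdx1-/- alone, where Pdx1 could not be tested either.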
